A study of Sus scrofa with 4 samples.

Results

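FABP5 and ACSL3 are 2 genes of fatty acid handling, followed here in porcine (Sus scrofa) blastocysts across every probe that the platform annotation gives to either symbol. The pair was chosen by its measured ratio of NEFA over control: in earlier results of these arrays ACSL3 had the smallest p among fatty acid oxidation genes, and FABP5 had been described by its mean and its wide range over the arrays. That ratio is therefore given below as a description, with no test. FABP5 (gene ID 574074 in the current pig RefSeq table, assembly Sscrofa11.1) had 1 probe, at spot 28972, and ACSL3 (gene ID 100233169) had 3. They are 2 of 10024 genes with a symbol on the array, and their 4 probes are among 13146 named ones. The working label for the pair speaks of fatty acid trapping, but the arrays measured transcripts only, so neither the proteins nor fatty acid uptake was measured.

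Fatty acids that enter a cell are held in solution by small intracellular binding proteins, among which FABP5, the epidermal type, is one of the most widely expressed. Long-chain acyl-CoA synthetases then join the fatty acid to coenzyme A, which keeps it in the cell and commits it to oxidation, membrane lipid or storage. ACSL3 is the synthetase of the endoplasmic reticulum and of growing lipid droplets. In human and mouse cells FABP5 also carries fatty acids and retinoic acid to the nuclear receptor PPARD. Pig oocytes and early embryos are known for a large store of cytoplasmic lipid.

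The embryos were taken as blastocysts, which consist of an outer epithelium, the trophectoderm, around a fluid-filled cavity and a small inner cell mass. The exposed group held blastocysts grown from oocytes that had met NEFAs (fatty acids not bound in esters, as they circulate in blood) at raised concentration, and the other group held blastocysts from control oocytes. The labels give no dose, breed or culture details. The design states 4 pools of 10 blastocysts collected on days 7 and 8, and each of 4 two-colour arrays set a NEFA pool against a control pool. On arrays 1 and 2 the Cy3 channel held NEFA embryos, and on arrays 3 and 4 the Cy5 channel did. It does not say whether the 4 pools are per condition or in all, so some of the 4 channels of a condition may hold the same pool, and a pool below means the RNA in 1 channel of 1 array. Whether the pools came from separate cultures is not stated either, so any spread below is the spread between these arrays and may be partly technical. RNA was amplified before labelling, and each pool mixes all cells of its embryos, so fewer cells of a type and less RNA per cell cannot be told apart.

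Across 17145 probes kept for testing, the NEFA over control ratios of arrays 2 and 4 correlated at r = -0.54 and those of arrays 1 and 3 at r = -0.29 (across probes, which are not independent). The other 4 pairs of arrays lay between -0.24 and 0.16. The arrays thus did not share a pattern of NEFA over control under the labelled dye orientations, and the members' means and the count over all pathway genes are also given with the orientations of arrays 2 and 3 exchanged, an alternative taken up because earlier results of these data were known. Exchanging arrays 1 and 4 instead gives the mirror image, with every sign turned. Between 38.3% and 49.0% of probes exceeded background in a channel. Of the trophectoderm markers, 7 of 10 on the array were kept, TFAP2C, GATA2 and TEAD4 among them, while CDX2 and KRT8 had no probe under these symbols among those used here. Of the inner cell mass markers 0 of 5 were kept, and SOX2 was above background in 1 NEFA pool and 1 control pool.

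FABP5 transcripts were measured in all 8 channels. Levels are given first as spot intensity after background correction, divided by the limit that the negative control spots of the same array and channel set (their mean plus 2 SD). For FABP5 this was 15.1, 8.57, 18.9 and 7.65 times the limit in the NEFA pools of arrays 1 to 4. In the control pools of the same arrays it was 11.9, 5.46, 7.20 and 11.9 times the limit. Exceeding the limit in all 8 channels was shared with 25.0% of the 43794 probes. On arrays 1, 2 and 3 the NEFA pool was the higher of the pair and on array 4 the control pool was.

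**Figure D1:**
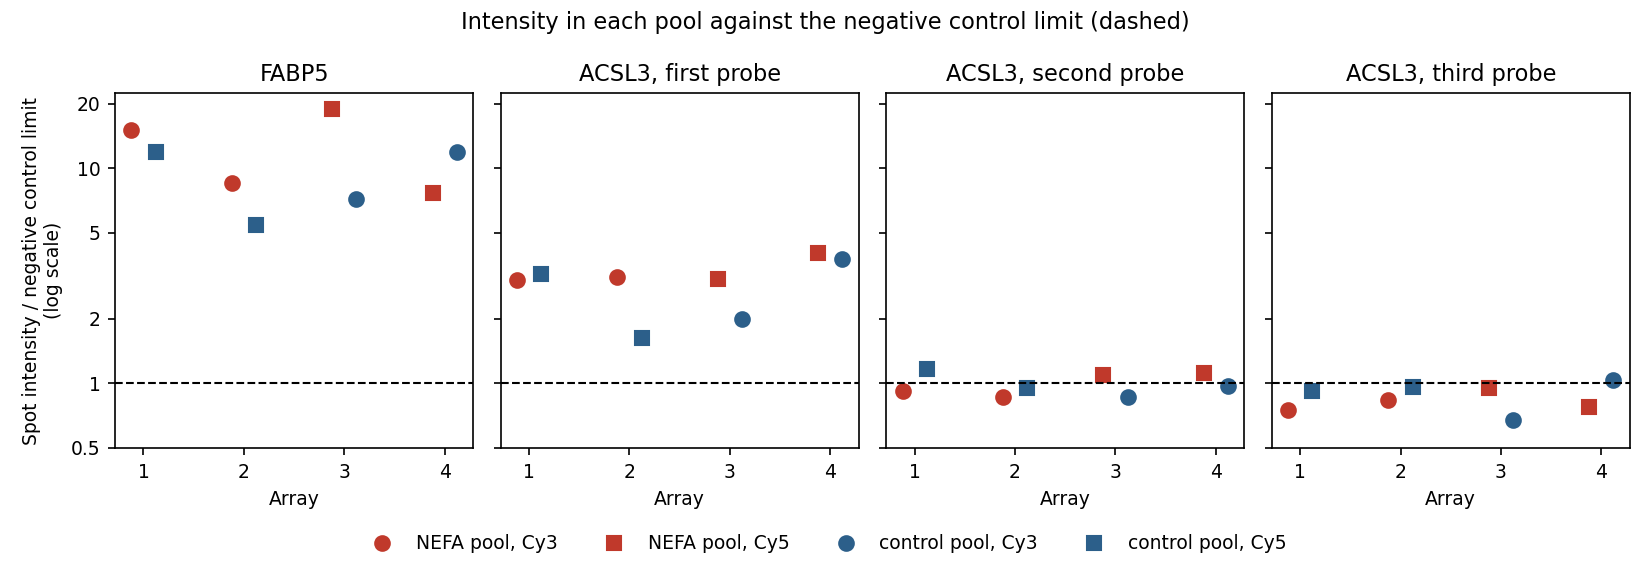
Spot intensity after background correction divided by the negative control limit (vertical axis, log scale) in the NEFA (red) and control (blue) pool of each array, for the FABP5 probe and the 3 ACSL3 probes; circles are Cy3, squares Cy5, and the dashed line is the limit. FABP5 sits between 5.46 and 18.9 times the limit and the first ACSL3 probe between 1.62 and 4.02 times, while the other ACSL3 probes lie on either side of it.

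To compare pools across arrays, intensities were also brought to a common log2 scale. On it, FABP5 reached 11.97, 11.33, 12.80 and 10.88 in the NEFA pools and 11.31, 10.77, 11.27 and 11.47 in the control pools. The group means were 11.75 ± 0.83 and 11.21 ± 0.30 (SD, n = 4 channels each). The groups overlapped: the NEFA pools of arrays 3 and 1 were the highest of the 8, followed by the control pool of array 4, and the NEFA pool of array 4 was the lowest but one, above the control pool of array 2. The spread was wider among NEFA than among control pools.

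The log2 ratio of NEFA over control for FABP5 was 0.66 on array 1, 0.56 on array 2, 1.54 on array 3 and -0.59 on array 4. It was therefore above 0 on 3 of 4 arrays, and the arrays that carried NEFA in Cy5 held both its highest and its lowest value. The limma fit with a dye term put the mean at 0.54 ± 0.34 (SE, n = 4), a 1.46-fold difference, with an SD over the arrays of 0.87. Every SE of a fitted ratio in this report is limma's moderated SE. It draws a probe's variance towards that typical of all fitted probes, so it does not measure the scatter of its own 4 ratios alone. By orientation the mean was 0.61 with NEFA in Cy3 and 0.47 with NEFA in Cy5, and the dye term was -0.07 (Cy5 over Cy3), against a median size of 0.16 over all kept probes. The value rested on the arrays at the extremes: it was 0.01 without array 3 and 1.07 without array 4. With the orientations of arrays 2 and 3 exchanged it was -0.51 ± 0.27, and with those of arrays 1 and 4 exchanged 0.51 ± 0.27.

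Seen against the whole array, the FABP5 ratio of array 3 was reached or exceeded by 0.0817% of kept probes there, while on array 4 10.2% of kept probes were as low or lower. The SD of FABP5 over the arrays was reached by 6.14% of kept probes, and the median SD was 0.35. The gene was chosen with its mean and wide range known, so these shares cannot be read as support. On array 4, where FABP5 was lower in the NEFA pool, the median ratio of the 7 trophectoderm markers was -0.37, against -0.06 to 0.03 on the other arrays. Summed over these 7 markers, linear levels ran from 74353 to 85860 in the NEFA pools and from 67597 to 87679 in the control pools, and on array 4 the NEFA sum, 78318, was above the control sum, 67597. The median and the sum thus differed in sign there. The 7 markers did not move together on array 4: TFAP2C was at 0.51 and TEAD4 at 0.34. The others ran from -0.68 (GATA3) to -0.08 (TFAP2A). The median ratio on array 4 was -0.21 for 5 primitive endoderm markers, 0.09 for 3 cumulus and granulosa markers and 0.10 for 5 oocyte markers. The summed cumulus and granulosa level on array 4 was 13035 in the NEFA pool, the highest of the 8 channels, and 7178 in the control pool. Its 3 markers did not move together there: AMH was at 1.40, VCAN at 0.09 and FST at -0.82. AMH also ran from -1.46 on array 2 to 1.40 on array 4. The part of cell make-up in the FABP5 values was not tested.

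**Figure D2:**
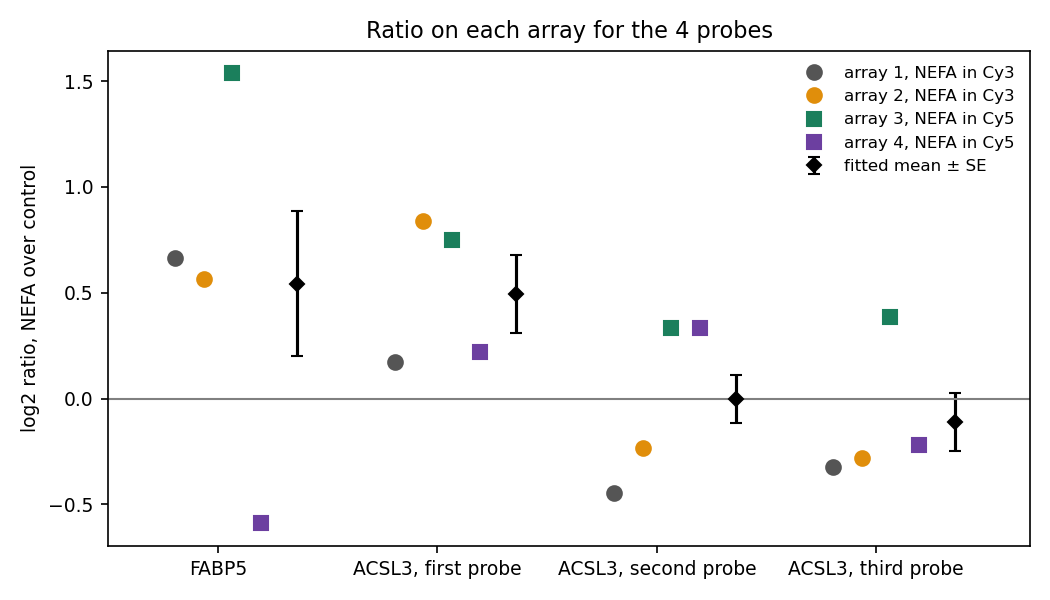
The log2 ratio of NEFA over control (vertical axis) on each of the 4 arrays for the FABP5 probe and the 3 ACSL3 probes, with circles for NEFA in Cy3, squares for NEFA in Cy5, and the fitted mean with its SE as a black diamond. FABP5 ranges from -0.59 on array 4 to 1.54 on array 3, the first ACSL3 probe is above 0 on all 4 arrays, and the second ACSL3 probe is below 0 with NEFA in Cy3 and above 0 with NEFA in Cy5.

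ACSL3 was read clearly by only 1 of its 3 probes. The first probe (spot 25875) was above the negative control limit in all 8 channels, at 3.04, 3.13, 3.05 and 4.02 times the limit in the NEFA pools and 3.23, 1.62, 1.99 and 3.78 times in the control pools. On the common log2 scale its levels were 9.68, 9.84, 10.04 and 10.04 in the NEFA pools and 9.51, 9.005, 9.29 and 9.82 in the control pools. The means were 9.90 ± 0.17 and 9.41 ± 0.34 (SD, n = 4 channels each). The groups overlapped by 1 pool, since the control pool of array 4 was above the NEFA pool of array 1, and here the control pools were the more widely spread.

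The log2 ratio of the first ACSL3 probe was 0.17, 0.84, 0.75 and 0.22 on arrays 1 to 4. All 4 values lay above 0, as they did for 3.56% of kept probes, a share that cannot be read as support since the gene was chosen on this contrast. Before loess, the corrected intensity on array 4 was the lower in the NEFA pool, at 809 against 896 in the control pool. The fitted mean was 0.49 ± 0.18 (SE, n = 4), a 1.41-fold difference, with an SD over arrays of 0.35. The orientation means were 0.51 with NEFA in Cy3 and 0.48 with NEFA in Cy5, and the dye term was -0.01. Arrays 2 and 3 carried the high values and arrays 1 and 4 the low ones, so that exchanging the orientations of arrays 2 and 3 gave -0.30 ± 0.20 and exchanging those of arrays 1 and 4 gave 0.30 ± 0.20. The mean was 0.33 without array 2, and 0.29 when spots were summarised by the mean of their pixels instead of the median.

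The other ACSL3 probes stood at background. The second (spot 30284) lay between 0.861 and 1.17 times the limit and was above it in 2 NEFA pools and 1 control pool. Its ratios were -0.45 and -0.23 where NEFA carried Cy3, and 0.33 on each array where NEFA carried Cy5. After loess the ratio thus favoured Cy5 on all 4 arrays, although before loess the corrected intensity was the higher in Cy3 on arrays 1, 2 and 4. The dye term, 0.34, exceeded the fitted ratio of -0.00 ± 0.11 (SE, n = 4, fit without the filter on dim probes). The third (spot 37672) passed the limit in a single pool, the control of array 4, so it gives no fold, and its measured group means were 7.84 and 7.94 on the log2 scale. Its ratios were -0.32, -0.28, 0.39 and -0.22. Only on array 3 did all 3 ACSL3 probes have ratios above 0. The RefSeq table lists 4 ACSL3 transcripts, and which of them each probe reads is not known here, since probe sequences were not used.

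FABP5 and ACSL3 differed from each other on the same arrays. Their ratios were 0.49 apart on array 1 and 0.79 on array 3, with FABP5 the higher. On arrays 2 and 4 ACSL3 was the higher, the FABP5 minus ACSL3 difference being -0.28 and -0.81. The root mean square difference over the 4 arrays was 0.63. Both genes were measured in the same pools, so these values are not independent of each other.

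Processing left the highest and the lowest array of FABP5 in place and did not do so for ACSL3. For FABP5, array 3 was the highest and array 4 the lowest in each of 6 ways of processing, and array 4 was negative in all of them, from -0.46 to -0.69. For the first ACSL3 probe, array 1 moved from 0.17 to -0.03 when loess was replaced by median centring, so its ratio was then above 0 on 3 of 4 arrays. With mean in place of median pixel intensity its ratios became 0.55, 0.33, 0.16 and 0.14, which made array 1 the highest instead of the lowest. The shift on array 3, -0.59, was matched in size by 0.782% of kept probes and that on array 2, -0.51, by 2.90%. The corresponding FABP5 shifts were smaller on arrays 1 to 3, at 0.23, -0.12 and -0.33. In the control pool of array 2 the raw ACSL3 spot read 509 by its median and 605 by its mean pixel, and in the NEFA pool of array 3 it read 906 and 708. In the authors' deposited table, turned by the labelled orientation, FABP5 stood at 0.65, 0.69, 1.57 and -0.69. The authors' deposited table gave the first ACSL3 probe as 0.21, 0.96, 0.78 and 0.17.

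**Figure D3:**
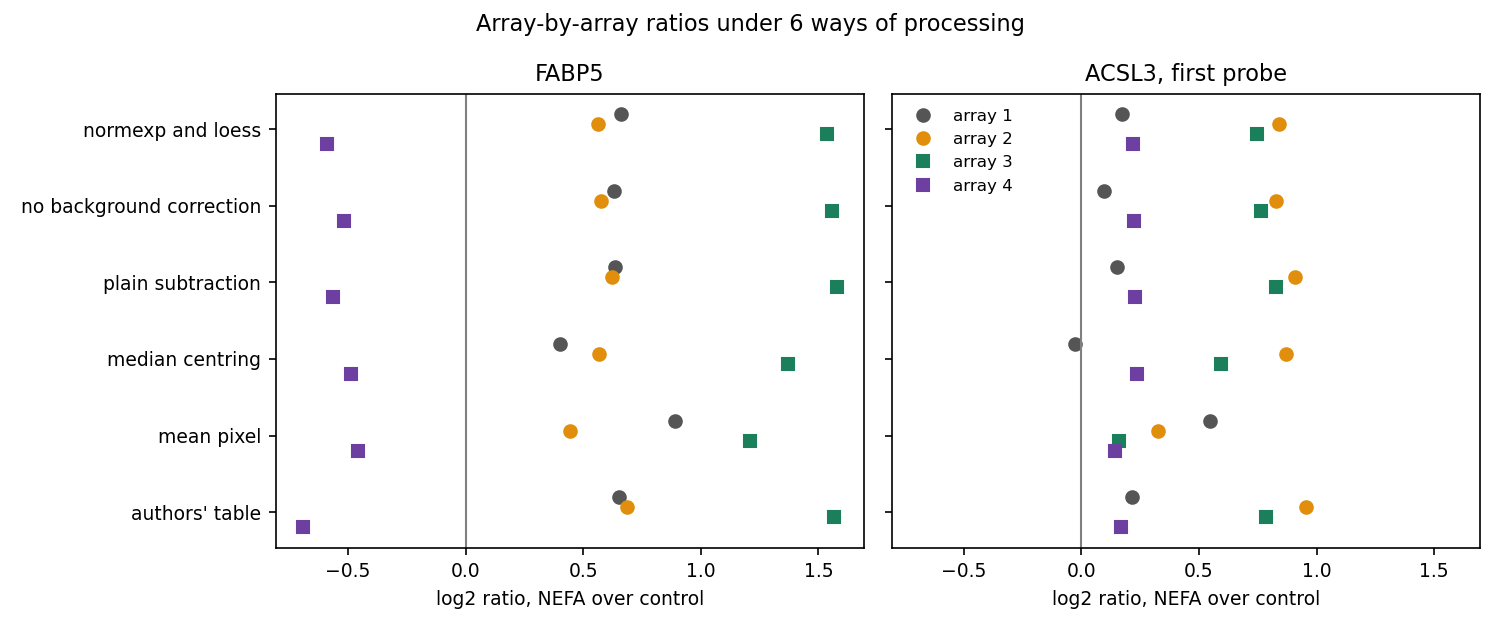
The log2 ratio of NEFA over control (horizontal axis) on each array for FABP5 and for the first ACSL3 probe under 6 ways of processing (rows). Each symbol is 1 array; array 3 is the highest for FABP5 in every row, while for ACSL3 array 1 lies between -0.03 and 0.55.

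The position of the spots on the slide was followed as well. On array 3 the 14 kept spots within 2 rows and 2 columns of FABP5 had ratios from -0.32 to 0.63 with a median of 0.03, so FABP5 at 1.54 stood above all of them. On array 4 the same 14 spots ran from -0.01 to 1.38 with a median of 0.30, and FABP5 at -0.59 stood below all of them. FABP5 at 0.66 on array 1 was within the range of its neighbours, which reached 0.75, and at 0.56 on array 2 it was just above their highest value of 0.54. For the first ACSL3 probe, the 8 kept neighbours reached 0.34 on array 2 and 0.30 on array 3, below its own 0.84 and 0.75. On arrays 1 and 4 its ratios lay inside the range of the neighbours, whose medians were 0.25 and 0.16.

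**Figure D4:**
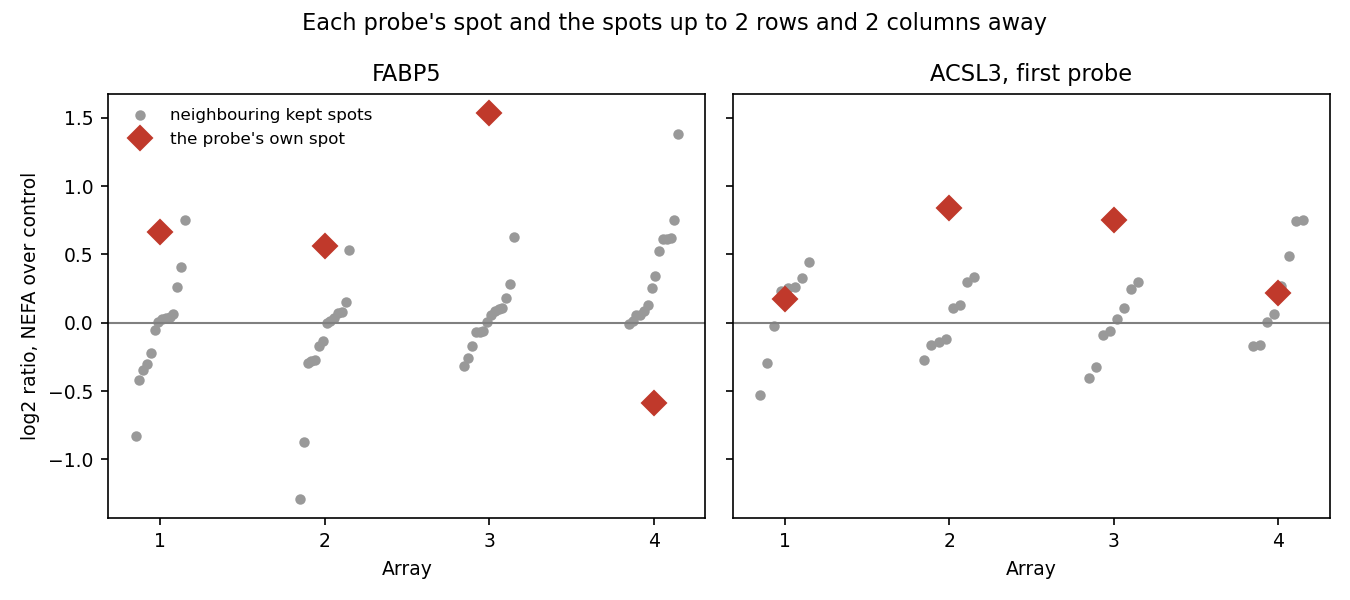
The log2 ratio of NEFA over control (vertical axis) on each array for the FABP5 spot and the first ACSL3 spot (red diamonds) and for the kept spots up to 2 rows and 2 columns away (grey points, 14 for FABP5 and 8 for ACSL3, spread sideways in order of value). FABP5 lies above all neighbours on array 3 and below all of them on array 4; ACSL3 lies above all neighbours on arrays 2 and 3.

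Around the pair, 53 other genes of fatty acid handling were measured, from binding proteins to nuclear receptors. In limma, 0 of 53 other measured pathway genes passed an adjusted p of 0.05, as did 0% of the 17145 probes, and 0 of the 53 reached an unadjusted p under 0.05, against 264 probes or 1.54% of all. Of the 53 genes, 23 had values above and 30 below 0, and their median was -0.04 against -0.01 over all kept probes. With the orientations of arrays 2 and 3 exchanged, 20 had values above and 33 below 0, and 6 passed, all with values above 0, where 6.96% of all probes passed. Exchanging arrays 1 and 4 instead would turn each of these signs. The 6 were CAV1, LIPE, PNPLA2, AGPAT1, LPIN2 and PPARD, named after their values were seen.

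Among the lipid-binding proteins, 5 others of 7 on the array were measured, with values from -0.29 to 0.13 and a median of 0.01. CRABP2, which carries retinoic acid to its receptors, stood at -0.29 ± 0.14 (SE, n = 4), at -0.35, -0.36 and -0.41 on arrays 1 to 3 and at -0.03 on array 4. RBP2, a cellular retinol-binding protein, was at 0.13 ± 0.20 and FABP1, the liver type, at 0.12 ± 0.15, above background in 3 NEFA pools and 1 control pool. PMP2, the myelin member of the family and a neighbour of FABP5 in the RefSeq gene order, was at 0.01 ± 0.14. FABP7, the brain type, was above background in 0 of 4 NEFA and 3 of 4 control pools, so it was kept only through the group where it was higher. Its fitted ratio was -0.17 ± 0.14 (adjusted p in limma 1.00 after rounding), with measured log2 means of 8.01 and 8.19. A bound from the group means was 1.06-fold higher in control, which does not take in the spread over arrays. Such a bound divides the brighter group's mean by the dimmer group's, with each dim reading raised to at least the faintest signal that counted as above background on its array. The ileal FABP6 was above background in 0 of 8 pools, and the intestinal FABP2 in 1 pool of each group. CRABP2 and RBP2 were, like FABP5, above the limit in all 8 channels, and PMP2 was in 7. FABP3 and FABP4 had no probe under these symbols among those used here.

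Of the other acyl-CoA synthetases, 5 of 11 on the array were measured, 2 above and 3 below 0, with a median of -0.06. ACSF2, a medium-chain synthetase, was at 0.22 ± 0.28, ranging from -0.51 on array 2 to 1.40 on array 4. ACSM3, another medium-chain enzyme, was at 0.07 ± 0.18, and the acetyl-CoA synthetase ACSS2 at -0.22 ± 0.18. ACSL6 was at -0.06 ± 0.17 with -0.30, -0.32, -0.17 and 0.55 on arrays 1 to 4, and ACSBG1 at -0.06 ± 0.19. Within the long-chain family, ACSL4, which prefers arachidonic acid, was above background in 0 of 8 pools and ACSL5 in 1 control pool, so ACSL3 and ACSL6 were the long-chain members measured, and ACSL1 had no probe under that symbol among those used here.

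**Figure D5:**
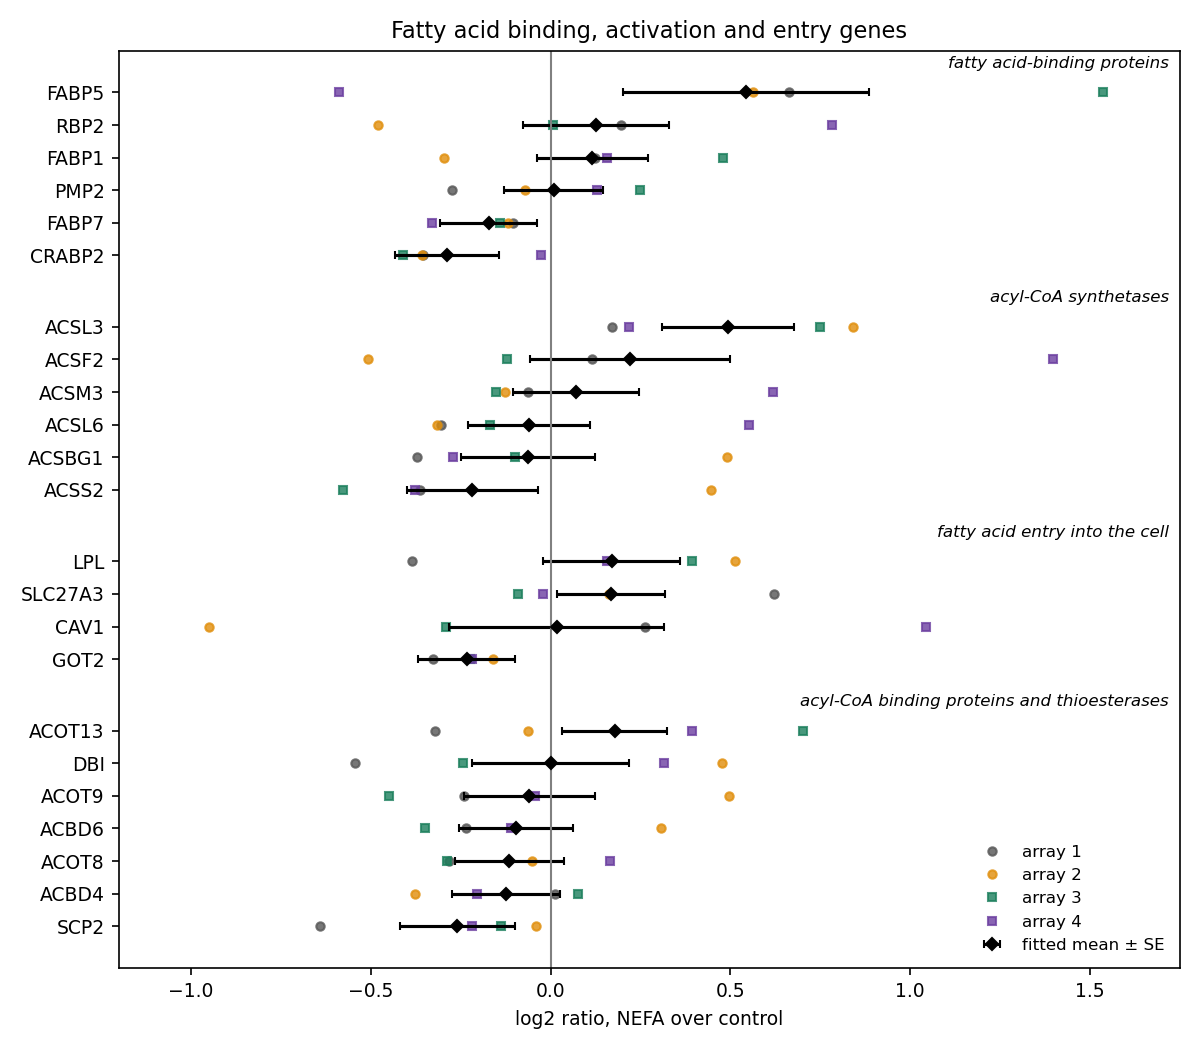
The log2 ratio of NEFA over control (horizontal axis) on each array (coloured circles and squares) and the fitted mean with its SE (black diamonds) for every measured gene of 4 lists: lipid-binding proteins, acyl-CoA synthetases, entry of fatty acids into the cell, and acyl-CoA binding proteins with thioesterases. FABP5 at 0.54 and ACSL3 at 0.49 have the highest fitted means of these 23 genes under the labelled orientations, which reflects how the pair was chosen; with arrays 2 and 3 exchanged they have the lowest, -0.51 and -0.30.

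Genes of fatty acid entry were measured for 4 of 9 on the array. LPL, the lipase that frees fatty acids from lipoproteins, was at 0.17 ± 0.19 and the fatty acid transport protein SLC27A3 at 0.17 ± 0.15. LPL was above background in 3 NEFA pools and 1 control pool, so it was kept only through the group where it was higher. SLC27A3 was above it in 2 NEFA and 3 control pools. CAV1, the coat protein of caveolae, was at 0.02 ± 0.30 with -0.95 on array 2 and 1.04 on array 4. GOT2, a mitochondrial aminotransferase also proposed to bind fatty acids at the plasma membrane, was at -0.23 ± 0.13. Its ratios on arrays 1 to 4 were -0.33, -0.16, -0.22 and -0.22. GOT2 was above background in 2 NEFA pools and 4 control pools, so it was kept only through the group where it was higher. The scavenger receptor CD36 was above background in 2 pools of each group and was not kept, and SLC27A1 and SLC27A4 were above it in 0 of 8.

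Proteins that hold or release acyl-CoA, the product of ACSL3, had 7 of 10 genes measured, 2 above and 5 below 0. DBI, the main acyl-CoA binding protein, was at 0.00 ± 0.22, ranging from -0.55 on array 1 to 0.48 on array 2. The thioesterases, which undo the synthetase step, had ACOT13 at 0.18 ± 0.15, ACOT9 at -0.06 ± 0.18 and ACOT8 at -0.11 ± 0.15. SCP2, a lipid transfer protein, was at -0.26 ± 0.16. ACBD6 was at -0.10 ± 0.16, with its other kept probe of opposite sign, and ACBD4 at -0.12 ± 0.15. ACBD4 was above background in 2 NEFA and 3 control pools, so it was kept only through the group where it was higher.

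The routes that use acyl-CoA had values on both sides of 0. In the carnitine shuttle and beta-oxidation list 6 of 10 genes were above 0 (3 of 10 with arrays 2 and 3 exchanged), with ACADVL, which opens the oxidation of very long chains, at 0.48 ± 0.23 (-0.55 on array 2 and 1.63 on array 4), ACADM at 0.19 ± 0.15 and the carnitine carrier SLC25A20 at -0.18 ± 0.15. In glycerolipid and sterol ester synthesis 7 of 8 genes were below 0, with a median of -0.15 against -0.01 over all kept probes. With a median under 0, values below 0 were the more common over all kept probes too. The 7 include DGAT1 at -0.02 ± 0.13, with its other kept probe of opposite sign. With arrays 2 and 3 exchanged, 5 of the 8 were below 0, with a median of -0.07, and AGPAT1 at 0.60 and LPIN2 at 0.72 passed. MOGAT1, a monoacylglycerol acyltransferase that adjoins ACSL3 in the RefSeq gene order, was at -0.44 ± 0.21. It was above background in 1 NEFA pool and 3 control pools, so it was kept only through the group where it was higher. GPAM, the mitochondrial enzyme of the opening acylation step, was at -0.43 ± 0.27 and above 0 only on array 2, and AGPAT4 at -0.23 ± 0.16, with its other kept probe of opposite sign. Of 9 lipid droplet and lipolysis genes 4 were above 0 (3 when exchanged), with CIDEB at -0.35 ± 0.15, ABHD5, the co-activator of the main triglyceride lipase, at 0.27 ± 0.18 and FITM2 at -0.26 ± 0.16. Of the nuclear receptors and coactivators 5 of 15 were measured. PPARD, the receptor tied to FABP5, was at 0.13 ± 0.35, while PPARA and PPARG were each above background in at most 1 control pool and were not kept. The 3 largest values of that list were NCOA1 at -0.28 ± 0.27, NR1H3 at 0.27 ± 0.15 with its other kept probe of opposite sign, and RARB at -0.19 ± 0.18.

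The genes whose 4 ratios lay nearest to those of FABP5, by root mean square difference over the 4 arrays among 5675 named probes, were PRNP at 0.32, NIN at 0.43, AK3L1 at 0.48, CIDEC at 0.50 and DKK3 at 0.52, where the median probe stood at 0.99. PRNP, the prion protein gene, had ratios of 0.62, 0.41, 0.99 and -0.87 on arrays 1 to 4. CIDEC, a lipid droplet protein, had 0.39, 0.13, 0.68 and -0.44, and was above background in 4 NEFA and 2 control pools. For these 5 genes array 4 was negative, and each lay below FABP5 on array 3. They were picked by likeness to FABP5, and few probes reached its ratio on array 3, so neither point is a separate result. Nearest to ACSL3 were PLS1 at 0.16, MS4A4A at 0.19, C1D at 0.20, EXO1 at 0.22 and SEC23B at 0.23, against a median of 0.68. Of these, MS4A4A was above background in 4 NEFA and 2 control pools and EXO1 in 3 NEFA and 2 control pools. PLS1, an actin-bundling protein, had ratios of 0.12, 0.67, 0.49 and 0.13, and SEC23B, a coat protein of transport from the endoplasmic reticulum, had -0.20, 0.96, 0.51 and 0.19. These likenesses rest on 4 arrays that share their pools and say nothing of shared control.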

How the data were processed

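Amplified RNA of blastocyst pools was coupled to Cy3 or Cy5, per the labels' protocols. The deposited scanner files hold, per the file headers, spot and local background intensity, not normalised, from scans at 532 nm for Cy3 and 635 nm for Cy5; the median pixel values were used. Limma is named in the submitters' processing notes without its version; for the image software the sources used here name none. The authors' deposited table holds log2 ratios (column medians -0.020, -0.023, -0.022 and -0.023). They matched log2 Cy5 over Cy3 from the scanner files after background subtraction and loess, at r = 0.966 to 0.995 with slopes of 0.975 to 1.04, on all 4 arrays, which gives scale and direction; how they were centred is unknown.

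Each array held 43794 probes and 1426 control spots. Intensities were corrected with normexp (offset 50) and normalised by loess within arrays, control spots at weight 0. Flagged spots (35 to 75 per array) were left out; none was a member's. Probes entered the fit when brighter than the limit (from 153 negative control spots, their mean plus 2 SD) in at least 3 of 4 pools of 1 condition, which kept 17145 of them. Median raw intensity was 289 to 436 in Cy3 and 220 to 289 in Cy5. The number of arrays limits precision. Log2 ratios were fitted in limma 3.58.1 (R 4.3.3, lmFit and eBayes) with a dye intercept and a NEFA term, over all kept probes with Benjamini-Hochberg adjustment, two-sided, with 2 residual and 3.67 prior degrees of freedom. The fit was also run on simulated ratios with known changes and noise drawn independently for each array. That setting lacks the negative correlations between arrays seen here, so it does not bear on them. Common-scale levels used Aquantile after loess. Nothing was imputed.

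Symbols were taken from GEO's platform annotation, some possibly outdated (1 symbol for 13146 probes, several for 0, and the rest unnamed here); 9857 of 10024 symbols are in the current pig table. No coordinates are given, as the array names no build. A gene with several kept probes is represented by the brightest with no flagged spot. Named by rule were FABP5 and ACSL3 with every probe, all measured genes of 4 lists (binding proteins, synthetases, entry, acyl-CoA binding and thioesterases), the 3 largest values of 4 other lists, and the 5 genes nearest in ratio to each member. Members and lists, markers included, were chosen with earlier results of these data known. Of the marker lists, the median ratio was -0.14 for trophectoderm, 0.02 for primitive endoderm (5 genes), -0.05 for cumulus and granulosa (3 genes) and 0.02 for oocyte genes (5 genes), with 0 genes past the threshold in limma. In the same fit 1 trophectoderm gene, ELF5, had an unadjusted p under 0.05, as had 1.54% of all kept probes. ELF5 was above background in 0 NEFA and 3 control pools, so it was kept only through the control pools.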

Additional observations from a re-analysis of the deposited data

Results flagged for a closer look

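Of 55 sets of 4 values looked at (the ratios of each gene named by rule, and the members' levels by group), 6 had 1 array far from the other 3 by Dixon's gap over range. Chance gives about 1 in 20 for independent sets. These sets share the same 4 arrays and some share a probe, so 6 of 55 cannot be held against that rate. For 4 of the 6 it was array 4: CRABP2 at -0.027, FABP7 at -0.33, ACSL6 at 0.55 and ACSM3 at 0.62. Array 4 also had the widest ratios over all kept probes, with an SD of 0.555 against 0.303 to 0.445 on the other arrays. The other two belong to the third ACSL3 probe, which is at background: its ratio on array 3, 0.39, and its control level on array 3, 7.48 on the log2 scale. The FABP5 ratios and those of the first ACSL3 probe were not set apart by this measure.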

How the results depend on the processing

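Of 16 alternatives, 4 leave a probe's own ratio as it is by construction. Of the other 12, FABP5 and the first ACSL3 probe each had fitted ratios above 0 in 11; the exception was the orientations of arrays 2 and 3 exchanged, with -0.51 and -0.30. Exchanging arrays 1 and 4, added after seeing the data, gave 0.51 and 0.30. The 2 exchanges are mirror images, so 1 of them had to lie above 0 and the other below. The pair was chosen by its ratio, so this count is a description and cannot be read as support. Leaving out 1 array gave 0.01 to 1.07 for FABP5 and 0.33 to 0.66 for ACSL3. The mean pixel alternative, added after seeing the data, gave 0.52 and 0.29. The count of probes past an adjusted p of 0.05 was 0 in 13 of 16 alternatives, leaving out each array included (0 to 0). It was 1193 with either exchange of orientations and 2 in the authors' deposited table, GNPDA2 and SEC14L2, both lower with NEFA (limma adjusted p 0.0156 and 0.0226). The cause was not tested. Over the 16 alternatives the median of all probes stayed between -0.03 and 0.02. Each ratio sets the NEFA against the control channel of its own array, so the fit is already paired by array. Signal over background limits the ACSL3 probes at spots 30284 and 37672, which were under the negative control limit in most pools.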
